A study of Homo sapiens with 2 samples.

Results

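The 9 genes described here encode neural cell adhesion proteins: the contactins CNTN1, CNTN3 and CNTN4, the IgLON proteins NTM, NEGR1, OPCML and LSAMP, and the neuroligins NLGN1 and NLGN2. They were represented by 27 probe sets, each annotated to a single member symbol, on expression arrays that covered 19775 genes in all, and 0 probe sets named a member together with another gene. The members were chosen by gene family with their intensities and the difference between these 2 arrays already known, so every level and difference below is a description. 786-O is a human clear-cell renal carcinoma line with a mutated VHL gene, and 786-VHL is a line made from it that carries a working VHL gene. RNA of each line was hybridised to 1 array, so no replicate, standard error or test exists for any difference. The labels used here do not say whether 786-VHL was a clone or a pool, nor whether 786-O carried an empty vector, and the effect of VHL cannot be told apart from differences between the cultures. VHL itself read 28.9 in 786-O and 15.96 in 786-VHL on its brighter probe set, at least 1.17-fold lower in the line said to carry the working gene, a direction that goes against the labels. The values lie near the floor, the other VHL probe set was below it on both arrays, and whether either probe set detects the introduced copy was not analysed here. The VHL probe sets therefore do not bear out the labels, 786-O and 786-VHL below mean the arrays so labelled, and every direction rests on the labels alone.

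Contactins and IgLONs are immunoglobulin-type proteins held in the outer membrane leaflet by a glycosylphosphatidylinositol (GPI) anchor. Contactins act where axons meet glia and at nodes of Ranvier, and IgLONs pair with each other across cells and guide neurite growth and synapse number. Neuroligins are postsynaptic proteins with a single membrane span, whose cholinesterase-like ectodomain binds presynaptic neurexins. All are best known from the nervous system, and the arrays were run to find genes whose expression follows the state of VHL. The VHL protein is the subunit of a ubiquitin ligase that recognises hydroxylated HIF alpha chains, which are then degraded.

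Because HIF binds DNA at the core letters ACGTG or GCGTG, the 250 bases before annotated gene starts were read from the RefSeq table (GRCh38.p14) and searched for those letters on both strands; CACGTG matches once per strand. The table held 16 starts for 8 of the members and NEGR1 was not matched. The furthest upstream listed start is printed for CNTN1, NTM and NLGN1, all lower in 786-VHL, and for OPCML, the neighbour of NTM. OPCML was below the floor, the median of all values, on both arrays. Matches are in capitals, and the sequences run along the gene's strand.
CNTN1, chr12:40827934-40828183, plus strand: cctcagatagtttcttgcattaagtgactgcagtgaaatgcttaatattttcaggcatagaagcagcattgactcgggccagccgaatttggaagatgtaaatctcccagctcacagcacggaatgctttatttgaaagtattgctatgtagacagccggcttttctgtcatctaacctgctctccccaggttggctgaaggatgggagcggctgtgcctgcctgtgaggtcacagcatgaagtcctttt
NTM, chr11:131370365-131370614, plus strand: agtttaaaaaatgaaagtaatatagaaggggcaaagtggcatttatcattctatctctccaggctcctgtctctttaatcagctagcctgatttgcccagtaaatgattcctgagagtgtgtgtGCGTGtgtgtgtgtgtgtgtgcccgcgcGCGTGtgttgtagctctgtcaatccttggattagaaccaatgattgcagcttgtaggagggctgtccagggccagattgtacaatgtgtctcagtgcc
NLGN1, chr3:173395702-173395951, plus strand: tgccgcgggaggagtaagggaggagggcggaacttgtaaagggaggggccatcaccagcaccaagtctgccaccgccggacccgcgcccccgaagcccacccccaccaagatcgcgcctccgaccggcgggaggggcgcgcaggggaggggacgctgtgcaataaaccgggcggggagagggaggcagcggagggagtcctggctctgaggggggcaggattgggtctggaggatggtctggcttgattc
OPCML, chr11:133532502-133532751, minus strand: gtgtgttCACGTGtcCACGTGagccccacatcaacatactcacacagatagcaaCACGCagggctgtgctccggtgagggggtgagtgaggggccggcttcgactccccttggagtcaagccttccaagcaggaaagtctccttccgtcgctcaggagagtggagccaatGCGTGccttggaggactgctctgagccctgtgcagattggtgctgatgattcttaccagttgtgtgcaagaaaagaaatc
Both CNTN1 windows and both NLGN1 windows held 0 matches. NTM had matches before 2 of its 5 starts, both matches of the start shown lying in or beside a GT repeat, and OPCML had them before both of its starts. In all, 6 of 16 member windows held a match, against 43.2% of 35114 windows of the same length in the whole table. The CNTN1 window shown was 47.2% G and C with 5 CpG dinucleotides and that of NLGN1 69.2% with 19, where the median over all windows was 58.0% with 11, so these windows differed in base composition. Which start the cells used was not measured.

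Intensities are in arbitrary units on a linear scale. A probe set was counted as above the floor where its higher value exceeded 22.3, the median of all values on the 2 arrays. Differences are log2(786-VHL + 16) minus log2(786-O + 16), so a negative value is lower in 786-VHL, and the added 16 understates differences of dim probe sets. Folds were computed with the same 16 added to both values, so they are smaller than the plain ratio of the intensities printed beside them. Where a probe set was below the floor in 1 line, the fold stated is a lower bound, computed with that line set to the floor.

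CNTN1, NTM, NEGR1 and NLGN1 were lower in 786-VHL than in 786-O, NLGN2 was not 2-fold apart, and CNTN3, CNTN4, OPCML and LSAMP were below the floor in both lines. Of the 27 probe sets 13 were above the floor on at least 1 array, and 9 of these were at least 2-fold lower in 786-VHL and 0 at least 2-fold higher. Among all 24414 single-gene probe sets above the floor 2.7% were at least 2-fold lower and 1.42% at least 2-fold higher. With values below the floor set to the floor, 6 of the 9 member probe sets were still at least 2-fold lower. The share of all probe sets was not computed in that way. Of the 13, 7 were below the floor in 786-VHL and so had entered through 786-O alone, which makes a lower value there a condition of entry; of all 24414, 3.44% had entered that way. The other 14 member probe sets were below the floor on both arrays, as were 40.6% of all 41091 single-gene probe sets. Of the 6 above the floor in both lines, 2 were at least 2-fold lower, against 2.38% of 22428 such probe sets in all. The median difference of the 13 was -1.64, beside 0.04 over all 24414.

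**Figure D1:**
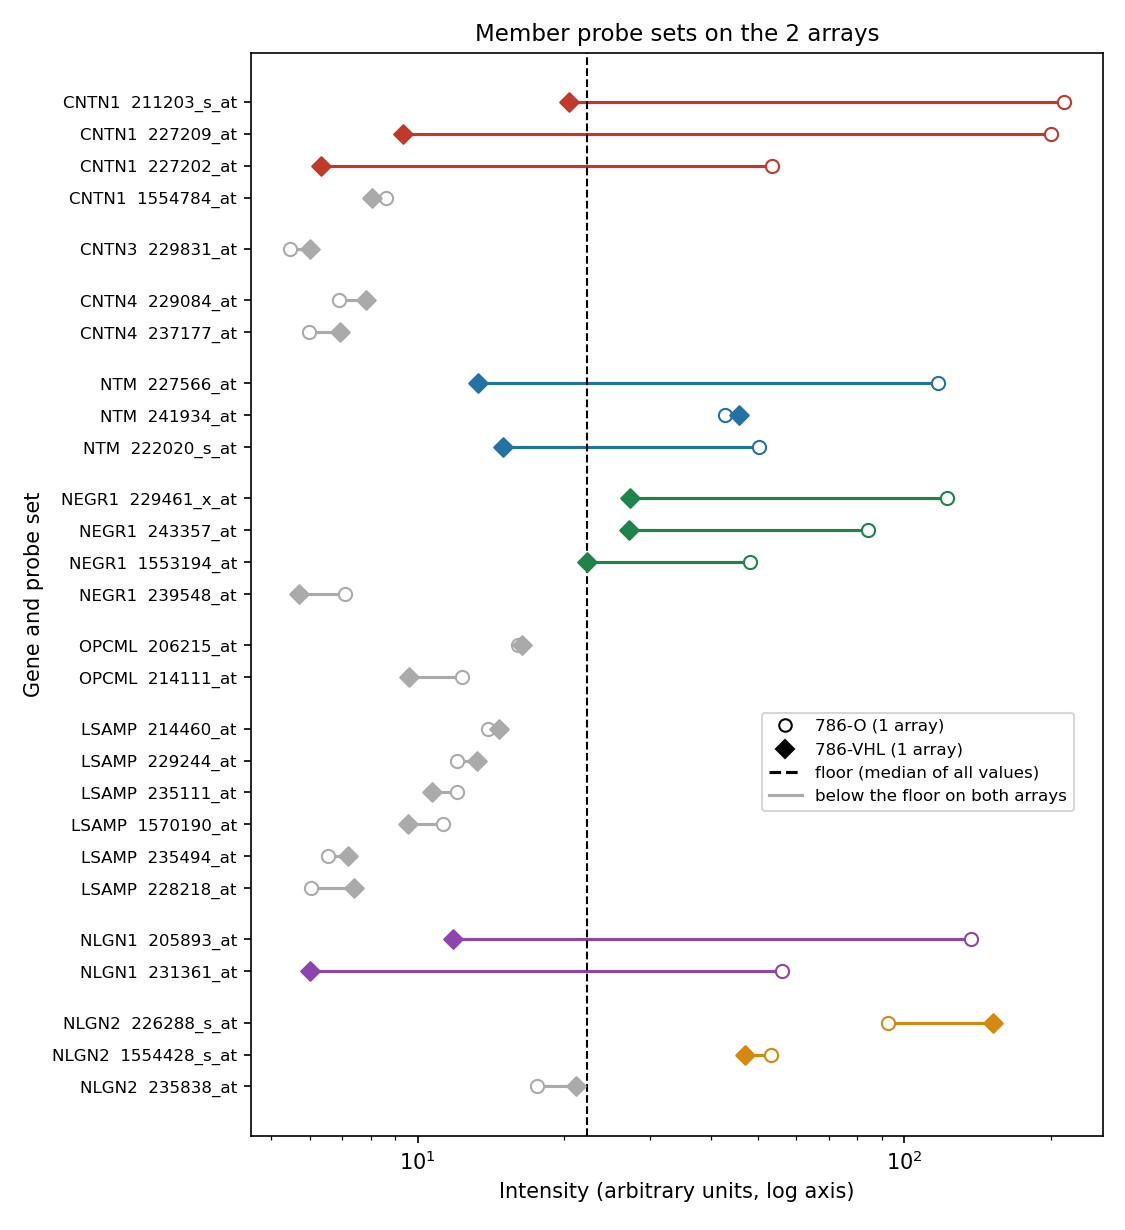
Intensity of every member probe set in 786-O (open circles) and 786-VHL (diamonds), 1 array each, on a log axis; the dashed line is the floor of 22.3 and grey marks probe sets below it on both arrays. CNTN1, NLGN1 and 2 of the NTM probe sets cross the floor, 3 NEGR1 probe sets end at or just above it, and all OPCML and LSAMP probe sets stay to its left.

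CNTN1, the contactin of axons and glia that pairs with CNTNAP1 at paranodal junctions, had the lowest difference of the members. Its probe set 227209_at read 200 in 786-O and 9.31 in 786-VHL, a difference of -3.09, and ranked 13 from the lowest of the 24414. Its probe set 211203_s_at read 213 in 786-O and 20.4 in 786-VHL, a difference of -2.65. The 786-O values were well above the floor and the 786-VHL values below it, so the folds are bounds, 5.65-fold or more on the former probe set and 5.97-fold or more on the latter. The third, 227202_at, read 53.4 in 786-O and 6.32 in 786-VHL, at least 1.81-fold lower. The fourth, 1554784_at, was below the floor in both lines, at 8.602 and 8.05. Thus 3 of 4 CNTN1 probe sets showed the difference, and the other gave no signal in either line.

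The other contactins gave no measurable signal. CNTN3 read 5.47 in 786-O and 6.01 in 786-VHL on its single probe set. CNTN4, an axon guidance contactin whose gene lies on chromosome 3 as does that of CNTN3, read 6.89 and 7.85 on its brighter probe set and 5.97 and 6.92 on the other, in 786-O and 786-VHL respectively. These values lie far under the floor, so no fold is given and no direction is read from them.

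Among the IgLONs, NTM (neurotrimin, which acts in neurite growth and adhesion) was lower in 786-VHL on 2 of its 3 probe sets. Its probe set 227566_at read 117 in 786-O and 13.3 in 786-VHL, a difference of -2.19 and at least 3.48-fold lower. Its probe set 222020_s_at read 50.2 and 14.9, a difference of -1.10, which by the bound is at least 1.73-fold. The remaining one, 241934_at, read 42.8 in 786-O and 45.8 in 786-VHL, a difference of 0.07. The NTM probe sets therefore disagreed, with an SD between them of 1.13 log2 units, against a pooled SD of 0.33 between probe sets of 1 gene over 6436 genes. Which transcripts each probe set detects was not analysed here.

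NEGR1, a growth regulator of neurons and another IgLON, was lower in 786-VHL on all 3 of its probe sets above the floor. These were above the floor in both lines, by little in 786-VHL. Its probe set 229461_x_at read 122 in 786-O and 27.3 in 786-VHL, 3.20-fold lower. Its probe set 243357_at read 84.0 and 27.2, 2.31-fold lower. Its probe set 1553194_at read 48.1 and 22.3, 1.67-fold lower and so short of 2-fold, with the 786-VHL value on the floor. Unlike the bounds above, the first pair of folds compares values above the floor in both lines, though the 786-VHL values lie close to it. The fourth probe set, 239548_at, was below the floor at 7.08 and 5.70.

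OPCML, an opioid-binding IgLON also known as a tumour suppressor silenced in carcinomas, and LSAMP, which marks limbic neurons, were below the floor in both lines. OPCML read 16.1 in 786-O and 16.4 in 786-VHL on 206215_at and 12.3 and 9.61 on 214111_at. The 6 LSAMP probe sets lay between 6.04 and 14.7 over both lines. OPCML, like NTM, lies on chromosome 11, next to it in gene order, and only NTM was above the floor.

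The neuroligins went separate ways. NLGN1, found mainly at excitatory synapses, read 137 in 786-O and 11.8 in 786-VHL on 205893_at, at least 3.999-fold lower, and 56.0 and 6.01 on 231361_at, at least 1.88-fold lower. Both NLGN1 probe sets were thus above the floor in 786-O and below it in 786-VHL. NLGN2, found mainly at inhibitory synapses, read 92.6 in 786-O and 152 in 786-VHL on 226288_s_at, 1.55-fold higher, and 53.3 and 47.1 on 1554428_s_at, a difference of -0.13. The third NLGN2 probe set was below the floor at 17.6 and 21.1. The probe sets above the floor disagreed in sign, so no direction is given for NLGN2.

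**Figure D2:**
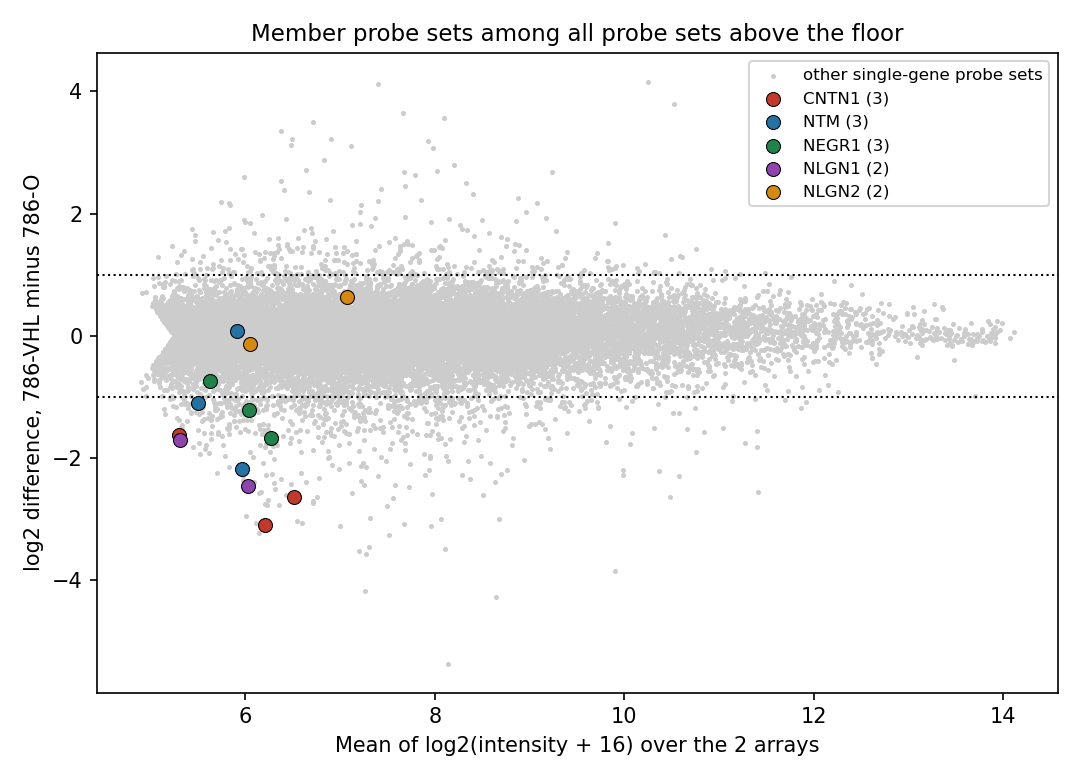
Difference between the lines (log2, 786-VHL minus 786-O) against the mean log2(intensity + 16) for all 24414 single-gene probe sets above the floor (grey) and the 13 member probe sets (coloured by gene); dotted lines mark 2-fold. The lowest point among the members is CNTN1 at -3.09, and NLGN2 lies between the dotted lines.

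Counted by gene on the probe set with the highest mean log2 value, 4 of the 5 measured members were at least 2-fold lower in 786-VHL, against 2.18% of 13291 measured genes, and 0 were at least 2-fold higher, against 1.54%. Their differences were -2.65 for CNTN1, -2.46 for NLGN1, -2.19 for NTM and -1.68 for NEGR1, which placed CNTN1 at rank 14 and NEGR1 at rank 69 from the lowest of all measured genes. The representing probe sets of CNTN1, NLGN1 and NTM were below the floor in 786-VHL. These genes counted as measured through 786-O alone, which makes a lower value in 786-VHL a condition of entry for them. The order among the 4 is not resolved, because the probe sets of a single member differed by as much: their SD was 0.75 for CNTN1, 0.53 for NLGN1 and 0.47 for NEGR1. Probe sets whose names end in _s_at or _x_at can hold probes that match more than a single transcript or gene. Without them CNTN1 was at -3.09 and NEGR1 at -1.21, NTM and NLGN1 kept the same representing probe set, and NLGN2 had none above the floor.

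The relatives of the members outside the list were close to the floor or below it. Of CNTN2, CNTN5, CNTN6, IGLON5, NLGN3 and NLGN4X, only CNTN2 and NLGN3 were measured, with differences of 0.18 and 0.09. Genes for proteins that contactins bind were not 2-fold apart in any of 9 measured cases out of 15, of which 5 were lower and 4 higher, with a median difference of -0.09. NCAM1, a neural adhesion molecule, had the largest at -0.54, with its 3 probe sets above the floor from -0.83 to -0.07. L1CAM, an axonal adhesion molecule, was at -0.40, but its other probe set was at 0.06. CNTNAP4 was at 0.34, with its 786-O value under the floor, and APP, the amyloid precursor protein gene, at -0.31. PTPRZ1, a receptor phosphatase that binds CNTN1, was below the floor in both lines.

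Of the partners of neuroligins, NRXN3, a neurexin gene, was lower in 786-VHL, at 185 in 786-O and 39.0 in 786-VHL on its brightest probe set, 3.66-fold lower. Its other probe sets read 40.4 and 15.4, 35.0 and 13.7, and 30.6 in both lines, so 3 of 4 were lower and the other had the same value on the 2 arrays. NRXN3 was the only 1 of 4 measured partners past 2-fold. DLG4, the postsynaptic scaffold PSD-95, differed by -0.44, NRXN2 by 0.11 and MDGA1, a GPI-anchored binder of neuroligins, by 0.06. The 3 MDGA1 probe sets ran from -0.08 to 0.06.

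Among 22 other neural adhesion genes with a probe set 13 were measured, 7 lower and 6 higher, with a median of -0.19. The teneurin gene TENM2 alone was at least 2-fold apart, at 226 in 786-O and 85.3 in 786-VHL, 2.39-fold lower on its single probe set. SLITRK4 was at -0.67 with 786-VHL below the floor, ADGRL2 at 0.50 and TENM4 at -0.42. ALCAM, an adhesion molecule also present in epithelia, read 3883 in 786-O and 2938 in 786-VHL, a difference of -0.40, and was named after its values were seen.

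Genes that attach and remodel GPI anchors were measured in 9 of 9 cases and none was 2-fold apart, with 4 lower, 5 higher and a median of 0.01. The largest differences were -0.67 for PGAP1, with 786-VHL below the floor, 0.58 for PIGS, -0.29 for PIGT and 0.28 for PIGK. Of 7 measured ectodomain proteases none was 2-fold apart on its representing probe set. The nearest was BACE2, an aspartyl protease, which read 701 in 786-O and 355 in 786-VHL, 1.93-fold lower, with its 3 probe sets from -1.61 to -0.87. PSEN2 was at 0.14, with probe sets from -0.05 to 0.14, and MMP9 was at 0.05. BACE1 was at 0.05, with probe sets from -0.23 to 0.09.

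**Figure D3:**
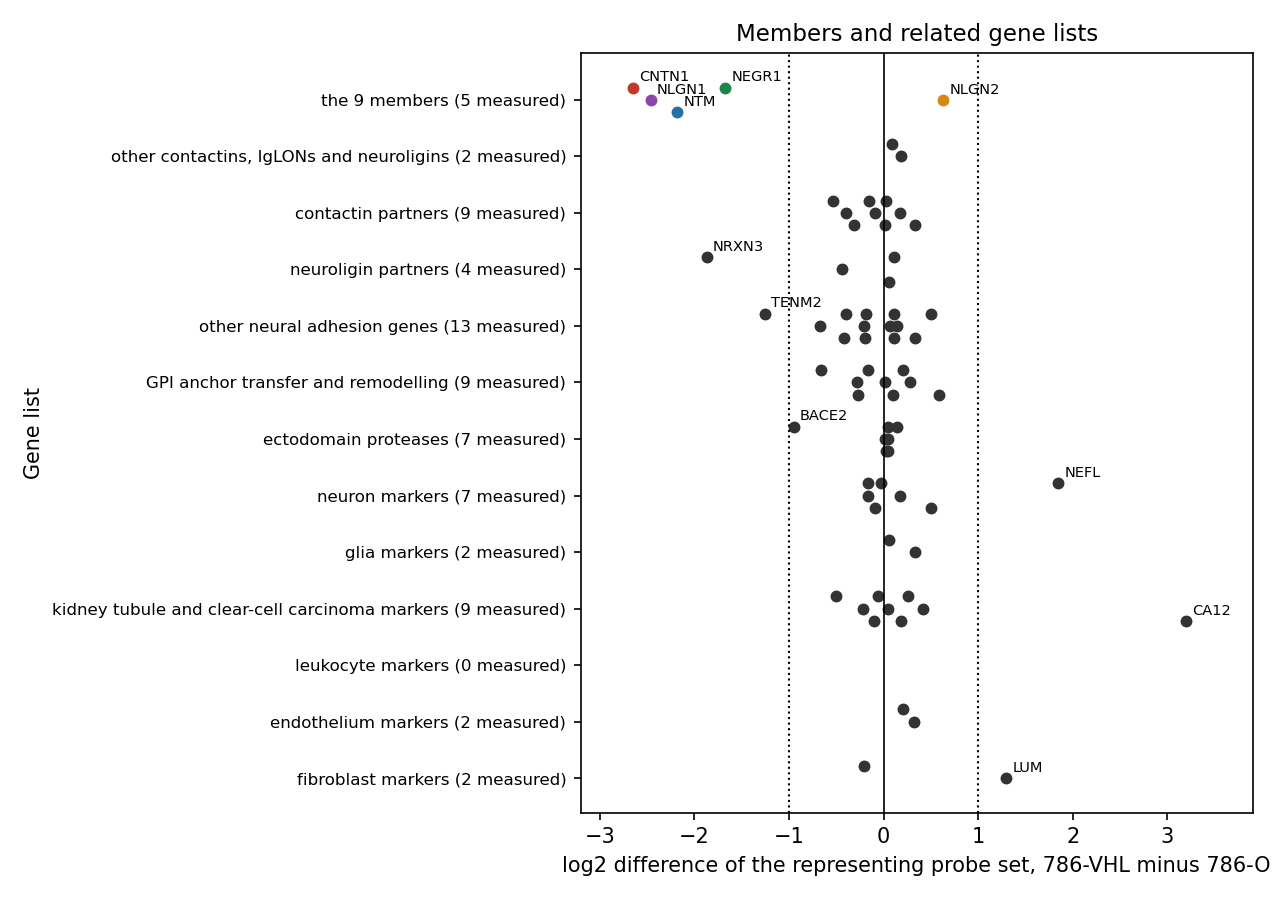
Difference of each measured gene on its representing probe set (log2, 786-VHL minus 786-O), with 1 row per list and dotted lines at 2-fold. CNTN1, NLGN1, NTM and NEGR1 lie left of the dotted line in the top row, and NRXN3 at -1.87 and TENM2 at -1.26 are the only genes of the partner and adhesion lists to do so.

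The genes beside each member were described in the order of the GRCh38.p14 annotation, with the 5 nearest measured genes on each side where the chromosome allowed. Around CNTN1, on chromosome 12, the 10 neighbours had a median difference of 0.20, with 2 lower and 7 higher. They ran from -1.04 for the desmosomal gene PKP2 to 1.01 for PRICKLE1. Of the nearest measured genes on either side, SLC2A13 read 162 in 786-O and 73.5 in 786-VHL, a difference of -0.99. GXYLT1, on the other side, was at 0.22. Around NEGR1, on chromosome 1, 8 of 10 neighbours were higher in 786-VHL, with a median of 0.61, and CTH, a cysteine synthesis enzyme gene, was highest at 2.36. NEGR1 at -1.68 thus lay opposite to the genes around it.

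Around NTM, on chromosome 11, 7 of 10 neighbours were lower, with a median of -0.16. ZBTB44 at -1.19 was the only 1 past 2-fold, and NTM at -2.19 was lower than each of the 10. Around NLGN1, on chromosome 3, 7 of 10 were lower, with a median of -0.26 and NCEH1, a cholesterol ester hydrolase gene, lowest at -1.60. LSAMP, itself below the floor, had 10 of 10 neighbours lower, from -0.68 to -0.016 with a median of -0.14, none of them 2-fold. CNTN4 lies near the end of chromosome 3 and had 5 measured neighbours, with a median of -0.32. Over all 13291 measured genes the median difference was 0.05, and the share of them that was lower was not computed. The part of neighbouring genes in the members' differences was not tested.

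**Figure D4:**
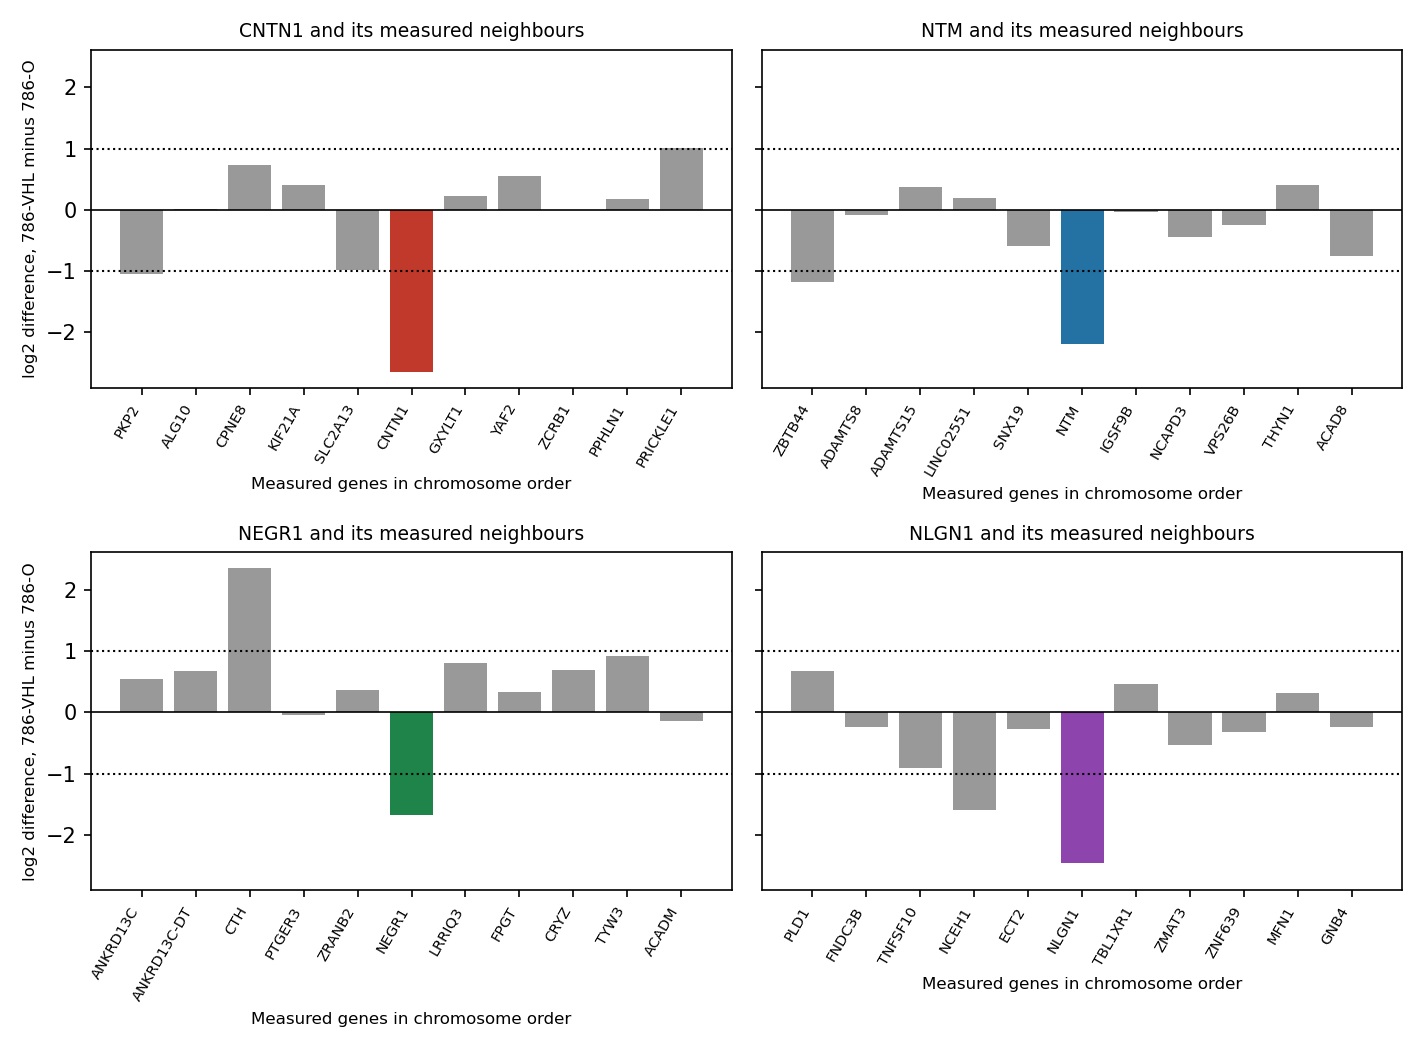
Difference of CNTN1, NTM, NEGR1 and NLGN1 (coloured bars) and of the 5 nearest measured genes on each side (grey bars), in chromosome order (log2, 786-VHL minus 786-O), with dotted lines at 2-fold. Each member has the lowest bar of its panel, and most NEGR1 neighbours point up.

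The labelled origin was checked against marker genes. The kidney marker PAX8 read 1521 in 786-O and 1068 in 786-VHL, and keratin KRT8 read 1771 and 2116, while all 3 leukocyte markers with a probe set were below the floor. The 9 kidney and carcinoma markers were all measured, and on the representing probe set CA12 at 3.19 was the only 1 past 2-fold. It was higher in 786-VHL, at 719 against 64.3 in 786-O. These markers bear on the tissue of origin, and whether the CA12 direction goes with the VHL labels was not tested. PAX8 was lower in 786-VHL on all 8 of its probe sets, from -1.08 to -0.29, and the 6 CA12 probe sets above the floor ran from 0.03 to 4.13. Of 12 neuron markers 7 were measured, 4 lower and 3 higher. Summed over all 12, intensities were 4601 in 786-O and 5515 in 786-VHL, and TUBB3 made up most of each sum. Among them TUBB3, a neuronal tubulin gene, read 3831 in 786-O and 3417 in 786-VHL, ELAVL3 read 99.1 and 92.3, and SYP, a synaptic vesicle gene, 44.3 and 43.0. The other 5 markers, MAP2, DCX, STMN2, SYT1 and ELAVL4, were below the floor in both lines. NEFL, a neurofilament gene, was higher in 786-VHL at 1800 against 489, 3.59-fold, with 3 probe sets from 1.39 to 1.85, which is opposite to CNTN1, NTM, NEGR1 and NLGN1, and SNAP25 was at 0.50. RBFOX3 was at 0.17 and GAP43 at -0.17, both near the floor. Of 6 glia markers with a probe set 2 were measured, MBP at 0.33, with probe sets from -0.56 to 0.58, and SOX10 at 0.06. The endothelial markers VWF and PECAM1 were at 0.32 and 0.20 with 786-O below the floor. Of the fibroblast markers COL1A1 was at -0.21, with probe sets above the floor from -0.21 to 0.15, and LUM was at least 1.39-fold higher in 786-VHL.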

How the data were processed

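Total RNA of 786-O and 786-VHL was hybridised to 1 biotin-labelled array each. The authors deposited an intensity for each of 54613 probe sets, not log-transformed as its range shows. R 2.10 is named in the submitters' processing notes; the background correction, normalization and probe summary were steps not given in the sources used here. Exactly equal values on both arrays occurred for 2127 probe sets. The quartiles were 9.97 and 109 in 786-O and 10.1 and 105 in 786-VHL.

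A platform annotation named a single gene for 41091 probe sets, several for 1801 and none for 11721, and symbols of 41037 were updated by Entrez number through RefSeq. Python 3.11.15 with numpy 2.4.6, pandas 2.3.3 and matplotlib 3.10.9 was used, and the steps were tested on simulated data. The members and lists were chosen with earlier results of these data known. The text names all members and up to 4 measured genes per list with the largest difference. Names outside that rule were picked with their values in view. Alternatives were other scalings, pseudocounts, floors, thresholds and probe set choices.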

Additional observations from a re-analysis of the deposited data

How the results depend on the processing

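No paired analysis was possible because only a single array of either line exists, and no replicate could be left out. The count of 9 member probe sets at least 2-fold lower in 786-VHL was 5 with a pseudocount of 64 and 5 where the floor was raised to the 75th percentile, which admits fewer probe sets. Leaving out probe sets ending in _s_at, _x_at or _a_at gave 6, also from fewer probe sets. It was 10 with a pseudocount of 1 and 10 at a threshold of 1.5-fold. The count at least 2-fold higher was 1 at a threshold of 1.5-fold. The median difference was -2.12 with a pseudocount of 1, -0.74 with a pseudocount of 64, -0.089 with no floor, where all 27 probe sets enter, and -2.32 at the raised floor. Those 9 probe sets had 50 values under the alternatives, all 50 negative and 46 of them past 2-fold. Many of these values could not change sign. A changed floor leaves the difference of a probe set as it was, and a changed pseudocount alters its size but not its sign. The same holds for the values by gene, so the agreement in sign is no measure of error. The 4 lower genes had 32 such values, all 32 negative and 31 past 2-fold; NEGR1 was at -0.98 over the median of its probe sets. By the lower bounds 6 of the 9 probe sets were at least 2-fold lower. Most values of the members in 786-VHL lie at or below the floor, which limits how large a difference these arrays can show.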
